A study of Mus musculus with 9 samples.

Results

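The 3 arrays described here, of 9 in the series, measured RNA levels in mouse CD8+ T cells after 4 days of culture with interleukin-21 (IL-21), set against cells kept without cytokine. They were chosen by their titles alone, as replicates 1, 2 and 3 of the IL-21 culture, and no measured value entered the choice. Cells of the IL-21 group were kept with 10 ng/ml IL-21, and untreated cells with no cytokine. The other 6 arrays hold cells kept with IL-2 or with IL-15 at the same concentration, 3 arrays each, likewise set against untreated cells. All groups, the untreated cells included, were then restimulated for 4 h in the absence of cytokine, so every value describes restimulated cells after the culture. The labels call the 3 arrays of a cytokine biological replicates. The sources used here do not give the strain, sex or age of the mice, the restimulus, the way the CD8+ cells were isolated, or whether arrays with the same replicate number shared 1 preparation of untreated RNA.

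CD8+ T cells kill infected and tumour cells, and cytokines that signal through the common gamma chain decide much of their growth and differentiation. IL-21, made mainly by activated CD4+ T cells, binds a receptor of its own chain and the common gamma chain, activates the kinases JAK1 and JAK3, and signals mainly through the transcription factor STAT3. IL-2 and IL-15 use the same gamma chain together with the IL-2 receptor beta chain and signal mainly through STAT5. The question of the comparison is which genes the IL-21 culture changed relative to cells without cytokine, and the title of the series sets IL-21 against IL-2 as opposing programs for cells used in adoptive immunotherapy.

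Each array is a hybridisation of 2 RNAs, and the deposited values are signed log ratios, 1 for each probe. They were taken as log2 ratios of cytokine-treated over untreated cells, so that 1 stands for a 2-fold higher and -1 for a 2-fold lower level. The base of the logarithm is not stated in the sources used here, and a base above 2 would enlarge all log2 values by 1 common factor. The direction is likely, not settled. The labels put the cytokine-treated RNA in Cy5 on all arrays, while the design text and a deposited list put it in Cy5 on replicate 1 and in Cy3 on replicates 2 and 3. Differences of IL-21 and IL-2 within a replicate number, in which a shared dye effect cancels, correlated between replicate numbers at 0.20, 0.15 and 0.11 over all probes, and for IL-21 and IL-15 the correlations were 0.12, 0.14 and 0.17. Those of IL-2 and IL-15 were 0.04, -0.04 and -0.03, which gives no common direction. The arrays were taken to run 1 way on the basis of the differences that involve IL-21, with the order of channels in the labels. Single arrays of different replicate numbers nevertheless correlated as low as -0.35 over all probes (IL-21 replicate 3 and IL-2 replicate 1), while arrays of the same number correlated at 0.16 to 0.67. With the sign of replicates 2 and 3 turned, 0 genes passed for IL-21 against untreated cells, 0 against IL-2 and 0 against IL-15, at limma's adjusted p of 0.05. With the signs as taken these counts were 0, 14 and 3, so the count against untreated cells does not tell the directions apart. Below limma's unadjusted p of 0.05 against untreated cells stood more genes with the signs turned, 1708, than with the signs as taken, 1059. If the order of the channels were the reverse on all arrays, all signs would turn.

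The 3 IL-21 arrays differed much from each other. Over 17498 genes their log2 ratios correlated at 0.00 between replicates 1 and 2, at -0.26 between replicates 1 and 3 and at 0.27 between replicates 2 and 3, where genes are not independent points. Their gene medians were -0.04, 0.05 and 0.00, and 6.17%, 5.97% and 5.26% of all probes had a log2 ratio above 1 or below -1. Above 0 on all 3 arrays were 2020 genes (11.5%), and below 0 on all 3 were 2171 (12.4%). Of the other arrays IL-2 replicate 3 stood apart, with 13.6% of its probes beyond 1, against 4.10% to 6.47% on the remaining 5. The values carry no intensities, so no filter on dim probes was possible and no level of a gene can be read from them. Precision is limited by having 3 arrays. A lower ratio can come from fewer cells of a type or from less RNA per cell, which cannot be told apart here.

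With limma (9 arrays, 1 coefficient for each cytokine, Benjamini-Hochberg adjustment over all genes), 0 of 17498 genes (0%) passed an adjusted p of 0.05 for IL-21 against untreated cells. The lowest adjusted p was 0.0544. At an unadjusted p under 0.05 stood 1059 genes (6.05%), 458 (2.62%) above 0 and 601 (3.43%) below 0 with IL-21. This balance turned with quantile normalization, which gave 652 above and 407 below, so the shares of 2.62% and 3.43% set beside the gene lists hold for the ratios as deposited. With the replicate number added as a block, 11 genes (0.0629%) passed above 0 and 12 (0.0686%) below, 0.131% in all. Without replicate 1, without replicate 2 and without replicate 3 this blocked fit called 0 genes, with lowest adjusted p values of 0.249, 0.0794 and 0.147. A blocked test against untreated cells also leaves out the spread that arrays of the same number share. The values below are therefore given as values, and the blocked adjusted p is printed where it passed. Each SE below is that of the unblocked limma fit. It rests on the spread within the cytokine groups over all 9 arrays, drawn toward that of all genes, and not on the 3 IL-21 arrays alone. Where n = 3 is printed, it counts the IL-21 arrays in the mean.

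**Figure D1:**
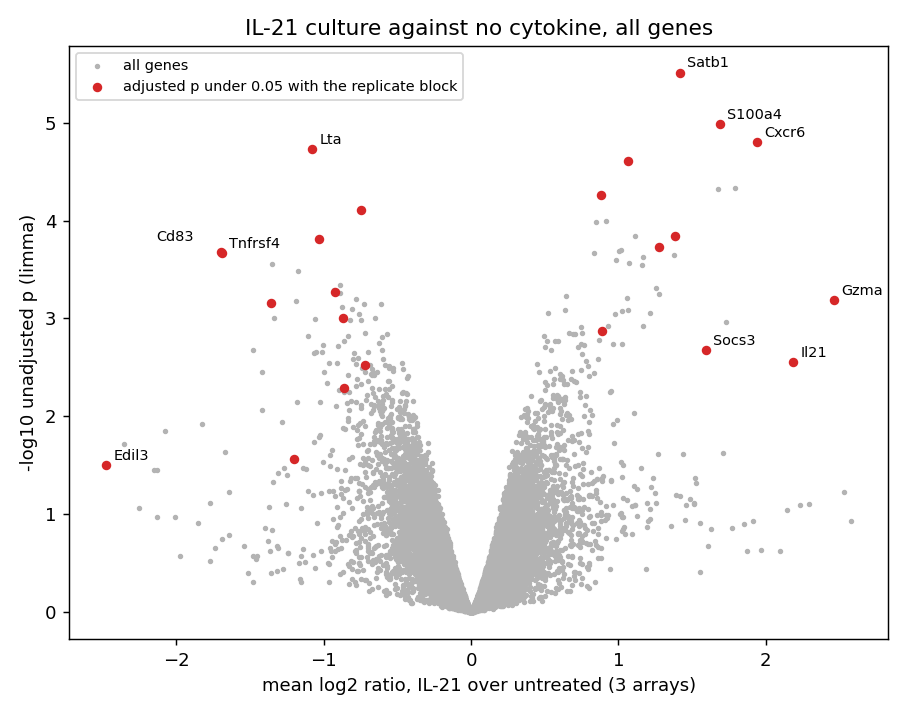
Each point is 1 of 17498 genes, with the mean log2 ratio of IL-21 over untreated cells across 3 arrays on the x axis and -log10 of limma's unadjusted p on the y axis. The 23 genes that passed with the replicate block are coloured and some of them are named. Satb1, at 1.42, has the smallest p, and no gene passed without the block.

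Socs3 and Il21, a feedback inhibitor and the cytokine's own gene, had the largest ratios among the listed targets of STAT3. Socs3, which encodes an inhibitor of JAK and STAT signalling that STAT3 itself induces, had log2 ratios of 0.76, 2.03 and 1.99 in IL-21 replicates 1, 2 and 3. Replicate 1 was lower than the others and all 3 were above 0, with a mean of 1.59 ± 0.37 (SE, n = 3; limma adjusted p 0.412, with the replicate block 0.0137). Il21 itself had 1.63, 1.41 and 3.52, with replicate 3 the highest, and a mean of 2.19 ± 0.53 (SE, n = 3; limma adjusted p 0.476, with the replicate block 0.0387). Batf, a transcription factor that works with IRF4 in activated T cells, had 0.95, 1.56 and 1.31, above 0 on every IL-21 array, with a mean of 1.27 ± 0.24 (SE; limma adjusted p 0.289).

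The other STAT3 targets lay closer to 0 or differed between arrays. Of 21 measured, 3 were higher and 0 lower below an unadjusted p of 0.05, against 2.62% and 3.43% of all genes, and 2 of them, Socs3 and Il21, also passed once the block was added. The list median was 0.07, beside 0.00 over all genes. The 3 were Socs3, Il21 and Batf. Prdm1, the gene of the effector regulator Blimp-1, had -0.28, 1.11 and 0.34. Il10, the gene of an anti-inflammatory cytokine, had 0.74, -0.14 and 1.21. Neither kept its sign on the 3 arrays. Bcl3, a co-regulator of NF-κB and a known target of IL-21, had 0.34, 0.44 and -0.01, and Bcl6, the opponent of Blimp-1, had 1.07, -0.55 and -0.34. Lowest of the list was Il23r, the gene of the IL-23 receptor, at -1.35, -0.09 and -1.23.

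The receptor and its signalling chain gave ratios near 0. Il21r had 0.13, 0.20 and -0.07, Jak1 0.83, -0.11 and -0.24, and Jak3 0.27, -0.05 and -0.39. Stat3 had -0.10, -0.02 and -0.37, all below 0 by less than 0.4. Of 9 measured genes of the chain, 0 were higher and 1 lower below an unadjusted p of 0.05, against 2.62% and 3.43% of all genes. The lower gene was the kinase gene Tyk2, at -0.40 ± 0.14 (SE; limma adjusted p 0.733). The list median was -0.06, and 0.01 with quantile normalization.

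The other common gamma chain receptor subunits lay on both sides of 0. Il7r, the gene of the IL-7 receptor of naive and memory cells, had 0.93, 0.42 and 0.95, above 0 on each array (mean 0.77 ± 0.23 SE; limma adjusted p 0.639). Il2ra, the gene of the IL-2 receptor alpha chain and a marker of activation, had -0.56, -0.56 and -0.23 (mean -0.45 ± 0.16 SE; limma adjusted p 0.771), with its 3 probes between -0.66 and -0.12. Il2rb, Il4ra, Il9r and Il15ra lay between -0.12 and -0.04. Of the 7 measured subunits, 1 was higher and 1 lower below an unadjusted p of 0.05, against 2.62% and 3.43% of all genes. None of the subunits passed with the block.

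Among 15 feedback inhibitors Socs3 stood at the top and Socs2 and Cish at the bottom. Socs2, which inhibits growth hormone and cytokine signals, had -1.15, -0.34 and -0.61, and Cish, a target of STAT5, had -0.77, -0.32 and -0.26. Both were below 0 on each IL-21 array, with means of -0.70 ± 0.26 and -0.45 ± 0.13 (SE; limma adjusted p 0.789 and 0.617). With IL-2 these genes had 1.31 and 0.36, and with IL-15 1.07 and 0.52, and the differences did not pass (limma adjusted p with the replicate block 0.0857 and 0.106 against IL-2, 0.152 and 0.0975 against IL-15). For Socs3 they did with the block: the IL-21 mean of 1.59 stood against 0.56 with IL-2 (adjusted p 0.046) and 0.10 with IL-15 (adjusted p 0.028). Socs1, a further inhibitor, had -0.49, 0.51 and -0.07. Of the 15, 2 were higher and 2 lower below an unadjusted p of 0.05, against 2.62% and 3.43% of all genes.

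**Figure D2:**
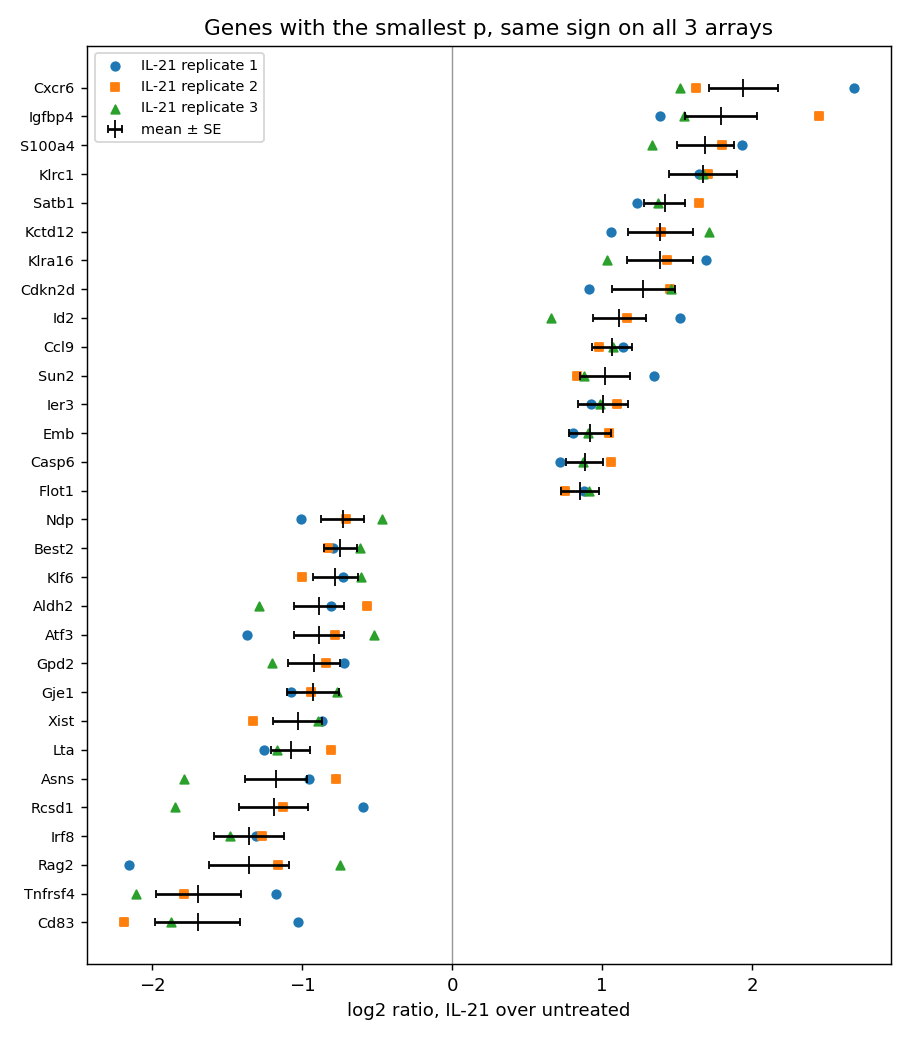
Log2 ratios of IL-21 over untreated cells (x axis) for the 15 genes above 0 and the 15 below 0 with the smallest unadjusted p among genes of the same sign on all 3 arrays (rows). Small points are replicates 1, 2 and 3, marked by shape, and the bar is the mean ± SE of the fit. All 90 small points lie on the side of 0 of their mean, by the way the genes were chosen.

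Satb1, the gene of a chromatin organizer that is high in thymocytes and naive T cells, had the smallest p of all genes. Its log2 ratios were 1.23, 1.65 and 1.37 on the IL-21 arrays, with a mean of 1.42 ± 0.14 (SE, n = 3; limma adjusted p 0.0544, with the replicate block 0.0254). Its 2 probes had means of 1.40 and 1.43. With IL-2 it had -0.07 and with IL-15 -0.29, and it was higher with IL-21 than with IL-2 by 1.49 ± 0.19 (SE; limma adjusted p 0.0476), in 3 of 3 replicates. Against IL-15 the limma adjusted p was 0.0508, which did not pass, and 0.0264 with the replicate block. Satb1 was the single gene that passed above 0 in the unblocked comparison of IL-21 and IL-2 (0.00571% of genes).

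Genes of naive and memory T cells lay mostly above 0 with IL-21. Of 18 measured, 5 were higher and 1 lower below an unadjusted p of 0.05, against 2.62% and 3.43% of all genes. Above 0 on all 3 arrays were 8 and below 0 on all 3 was 1, beside 11.5% and 12.4% of all genes. Array medians of the list were 0.54, 0.22 and 0.04, so that replicate 3 lay near 0. The median of the means was 0.23, beside -0.19 with IL-2 and -0.36 with IL-15. With the signs of replicates 2 and 3 turned it was 0.06 with IL-21, 0.11 with IL-2 and 0.09 with IL-15. Ccr7, the receptor that leads T cells into lymph nodes, had 0.51, 0.69 and 0.31 (mean 0.50 ± 0.14 SE; limma adjusted p 0.575). Klf2, the transcription factor that keeps egress receptors on, had 1.06, 0.23 and 0.57. S1pr1, the egress receptor itself, had 0.82, 0.12 and 0.52. These 3 genes were above 0 on each IL-21 array.

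Txk, a kinase of the T cell receptor pathway, had 0.63, 0.42 and 0.72 (mean 0.59 ± 0.16 SE; limma adjusted p 0.594). Lef1, a transcription factor of naive cells, had 0.49, 0.22 and 0.10. Other members went the other way or changed sign. Dapl1 had -0.08, -1.17 and -0.94, the lowest mean of the list at -0.73, and Cd27, a costimulatory receptor of naive and central memory cells, had 0.31, -0.42 and -1.01. Bach2, a repressor of effector genes, had 0.56, -0.51 and -0.84, and Foxp1, which holds naive cells at rest, 0.62, -0.34 and -0.81. In Cd27, Bach2 and Foxp1 replicate 1 was above 0 and the others below. Satb1 alone of the list passed with the replicate block.

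**Figure D3:**
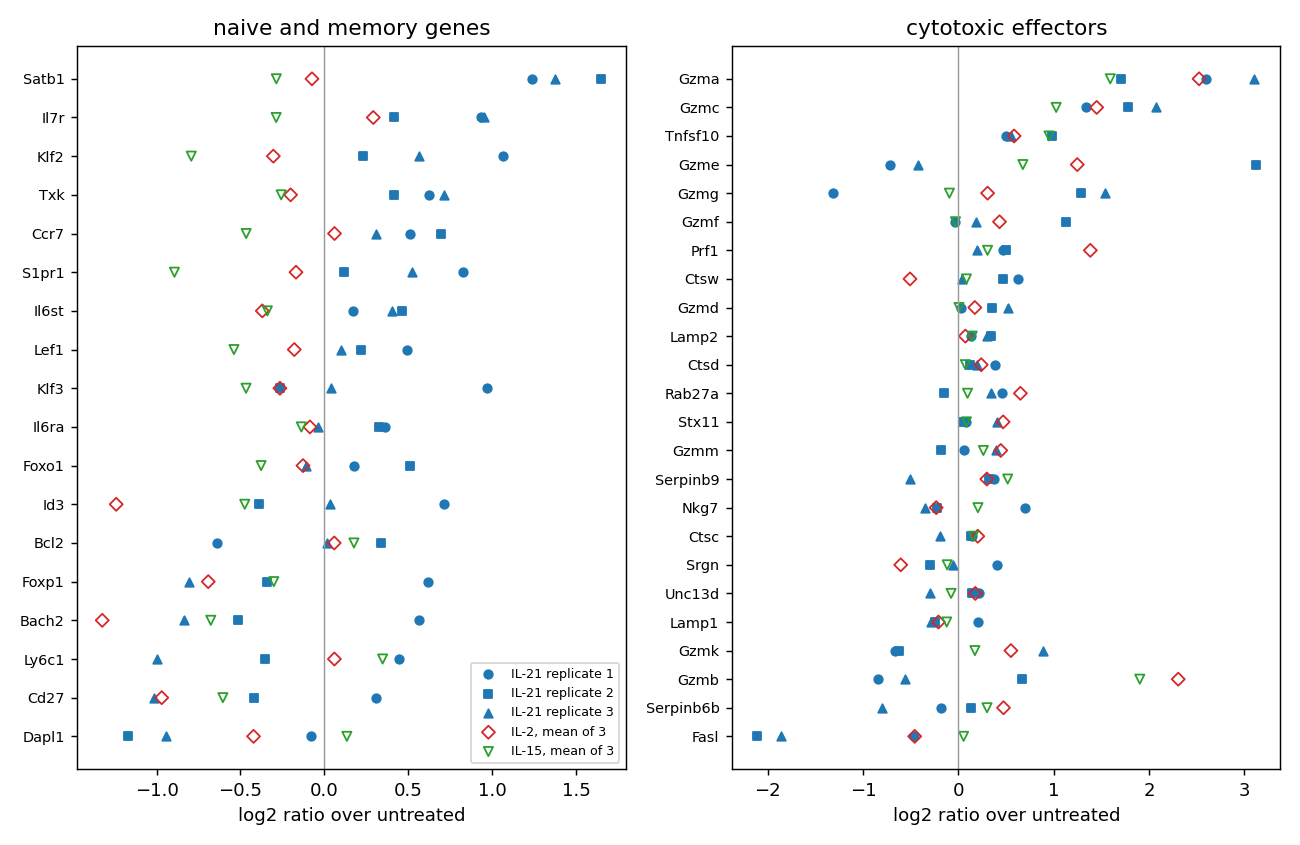
Log2 ratios over untreated cells (x axis) for the measured members of the naive and memory list (left) and of the cytotoxic effector list (right), ordered by the IL-21 mean. Points are the 3 IL-21 arrays, and open marks are the means with IL-2 and IL-15. Satb1 and Gzma lead their lists. Gzmb averages -0.25 with IL-21, where the arrays differ in sign, and 2.31 with IL-2.

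Effector regulators divided into a few genes above 0 and a larger number below. Id2, a repressor of E proteins that effector CD8+ cells need, had 1.52, 1.16 and 0.66 (mean 1.11 ± 0.18 SE; limma adjusted p 0.177). Its means were 1.14 with IL-2 and 0.59 with IL-15, and the differences did not pass (adjusted p with the block 0.972 and 0.383). Irf8, a transcription factor of activated T, B and myeloid cells, had -1.31, -1.27 and -1.48, below -1 on each array (mean -1.35 ± 0.23 SE; limma adjusted p 0.183). Bhlhe40, a regulator of cytokine output, had -0.83, -1.28 and -0.50 (mean -0.87 ± 0.18 SE; limma adjusted p 0.321, with the replicate block 0.0387). It was lower with IL-21 than with IL-2, where the mean was 0.30 (adjusted p of the difference with the block 0.0244). With IL-15 the mean was -0.09, and that difference did not pass (limma adjusted p with the block 0.0971). Of 20 regulators measured, 2 were higher and 6 lower below an unadjusted p of 0.05, against 2.62% and 3.43% of all genes. On all arrays 3 lay above 0 and 8 below 0, against 11.5% and 12.4%. The list median was -0.11.

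Eomes, a T-box factor of memory and effector cells, had -0.77, -0.30 and -0.19, below 0 on each array, but its 2 probes had means of -0.98 and 0.14. Its mean was -0.42 ± 0.15 (SE; limma adjusted p 0.749), beside 0.35 with IL-2 and 0.35 with IL-15, and the differences did not pass (adjusted p with the block 0.188 and 0.231). Tbx21, the gene of the related factor T-bet, had -0.47, -0.10 and 0.02. Gata3 had -0.65, -0.17 and -0.77, and Zbtb32, a repressor induced by activation, -1.03, -0.77 and -0.78. Zbtb32 and Gata3 kept their sign on the 3 arrays while Tbx21 did not.

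Cytotoxic effector genes lay on both sides of 0, with some granzymes well above it. Gzma, the gene of granzyme A, had 2.59, 1.70 and 3.10, the highest mean of the list at 2.47 ± 0.48 (SE; limma adjusted p 0.295, with the replicate block 0.0359). It had 2.52 with IL-2 and 1.59 with IL-15, and the differences did not pass (adjusted p with the block 0.959 and 0.383). Gzmc had 1.34, 1.78 and 2.08 (mean 1.73 ± 0.36 SE; limma adjusted p 0.33). Both granzymes were over 1 on each array. Gzmb, the gene of granzyme B, had -0.85, 0.67 and -0.56, with a mean of -0.25 ± 0.44 (SE). It was lower with IL-21 than with IL-2, where the mean was 2.31 (adjusted p of the difference with the block 0.0404), and it stood at 1.90 with IL-15 (0.0808). Prf1, the gene of perforin, had 0.47, 0.49 and 0.19, with a mean of 0.38. Probes of granzyme genes may bind RNA of related members of the family.

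Fasl, the gene of the death ligand that kills through Fas, had -0.47, -2.11 and -1.86, the lowest mean of the cytotoxic list at -1.48 ± 0.34 (SE; limma adjusted p 0.412). Tnfsf10, the gene of the death ligand TRAIL, had 0.50, 0.98 and 0.55. Thus the 2 death ligands had opposite signs on each IL-21 array. Of 24 cytotoxic genes, 4 were higher and 1 lower below an unadjusted p of 0.05, against 2.62% and 3.43% of all genes, and 9 lay above 0 and 1 below 0 on all arrays, against 11.5% and 12.4%. The list median was 0.20, and array medians were 0.17, 0.23 and 0.19. Turning the signs of replicates 2 and 3 gave a list median of -0.06.

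Among cytokine genes, lymphotoxin alpha had the smallest p. Lta, which sits beside Tnf and encodes a secreted member of its family, had -1.26, -0.81 and -1.17 with IL-21 (mean -1.08 ± 0.13 SE, n = 3; limma adjusted p 0.0823, with the replicate block 0.0359). With IL-2 it had 0.74 and with IL-15 0.65. The differences passed without the block, at -1.82 ± 0.18 against IL-2 (SE; limma adjusted p 0.0201) and -1.73 ± 0.18 against IL-15 (SE; limma adjusted p 0.0399), each in 3 of 3 replicates. Tnf, its neighbour, had 0.30, 0.63 and 0.22. Tnfsf11, the gene of RANK ligand, had -0.47, -0.96 and -0.73 (mean -0.72 ± 0.16 SE; limma adjusted p 0.372). Tnf was thus above 0, and Lta and Tnfsf11 below 0, on each array.

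Csf2, Il3 and Ccl1 were lower with IL-21 than with IL-2 once the block was added. Csf2, the gene of GM-CSF, had -0.45, 1.53 and 0.40 with IL-21, without a common sign. Its mean of 0.49 stood against 3.66 with IL-2 (adjusted p of the difference with the block 0.0216). Il3 had 0.02, 1.07 and -0.03 with IL-21, and its mean of 0.35 stood against 2.38 with IL-2 (adjusted p with the block 0.0235). The chemokine gene Ccl1 had -0.05, -0.22 and -1.24 with IL-21, and its mean of -0.50 stood against 1.96 with IL-2 (0.0216) and 1.71 with IL-15 (0.0395). Ifng, the gene of interferon gamma, had 0.30, -0.13 and -0.01, and Il2 had 0.23, 1.27 and 0.02. Ccl9, a further chemokine gene, had 1.14, 0.98 and 1.07 (mean 1.06 ± 0.13 SE; limma adjusted p 0.0862, with the replicate block 0.0359). Its means were 0.49 with IL-2 and 0.79 with IL-15, and the differences did not pass (adjusted p with the block 0.184 and 0.533). Of 24 listed cytokine and chemokine genes, 3 were higher and 2 lower below an unadjusted p of 0.05, against 2.62% and 3.43% of all genes. The list median was -0.01, or 0.04 with quantile normalization.

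Receptors of costimulation and activation lay mostly below 0 with IL-21. Tnfrsf4, the gene of the costimulatory receptor OX40, had -1.18, -1.79 and -2.11 (mean -1.69 ± 0.28 SE, n = 3; limma adjusted p 0.177, with the replicate block 0.0137). It had 0.21 with IL-2 and 0.53 with IL-15, and both differences passed with the block (adjusted p 0.011 and 0.0132). Cd83, an activation marker of lymphocytes and dendritic cells, had -1.03, -2.19 and -1.87 (mean -1.70 ± 0.28 SE, n = 3; limma adjusted p 0.177, with the replicate block 0.0293). It was also below 0 with IL-2, at -0.99, and with IL-15, at -0.40. The differences did not pass (adjusted p with the block 0.226 and 0.0808). Cd70, the ligand of CD27, had -0.87, -1.08 and -0.05, and its mean of -0.67 stood against 1.02 with IL-2 (adjusted p of the difference with the block 0.0216) and 1.00 with IL-15 (0.0324). All 3 genes were below 0 on each IL-21 array. Of 23 receptors, 1 was higher and 5 lower below an unadjusted p of 0.05, against 2.62% and 3.43% of all genes. The higher gene was Icos, a costimulatory receptor, at 0.97, 0.43 and 0.75. On all arrays 3 receptors lay above 0 and 9 below 0, against 11.5% and 12.4% of all genes. The list median was -0.25 (array medians -0.16, -0.29 and -0.23), beside -0.12 with IL-2 and 0.02 with IL-15. It was 0.09 with IL-21, 0.24 with IL-2 and 0.09 with IL-15 if the signs of replicates 2 and 3 are turned.

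Inhibitory receptors gave smaller ratios. Pdcd1, the gene of PD-1, had -0.42, -0.82 and -0.76, below 0 on each array (mean -0.67 ± 0.20 SE; limma adjusted p 0.625). Lag3 had -0.04, -0.27 and -1.04, while Havcr2, the gene of TIM-3, had 0.20, 0.26 and -0.21. Havcr2 had 1.59 with IL-2, and that difference did not pass (adjusted p with the block 0.0792). Of 15 measured, 0 were higher and 2 lower below an unadjusted p of 0.05, against 2.62% and 3.43% of all genes. None of the 15 passed with the block.

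Lectin receptors of the NK gene complex, which CD8+ effector and memory cells also carry, had several members above 0. Klrc1, the gene of the inhibitory receptor NKG2A, had 1.65, 1.70 and 1.67, the 3 arrays within 0.1 of each other (mean 1.67 ± 0.23 SE; limma adjusted p 0.118). Its partner gene Klrd1, which encodes CD94, had 0.62, 0.25 and 0.33, and Klre1 had 0.35, 0.68 and 0.69. Klra16, of the Ly49 receptor family, had 1.69, 1.43 and 1.03. Klrk1, the gene of the activating receptor NKG2D, had 0.01, -0.65 and -0.43, and its mean of -0.36 stood against 0.82 with IL-2 (adjusted p of the difference with the block 0.0404). Of 17 measured, 5 were higher and 0 lower below an unadjusted p of 0.05, against 2.62% and 3.43% of all genes, and 6 lay above 0 and 0 below 0 on all arrays, against 11.5% and 12.4%. Array medians were -0.21, 0.23 and 0.59, so that the list as a whole had no common sign. Ly49 and related probes may bind RNA of other members of the cluster. Of 6 NK cell markers 0 were higher and 1, Eomes, was lower, against 2.62% and 3.43% of all genes. Means of these markers ran from -0.42 to 0.37, and their part in these values was not tested.

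Cxcr6, the gene of a chemokine receptor of tissue-resident and memory CD8+ cells, had 2.68, 1.63 and 1.52 (mean 1.94 ± 0.23 SE, n = 3; limma adjusted p 0.0823, with the replicate block 0.0293). It had 0.61 with IL-2 and 0.15 with IL-15, and the differences did not pass with the block (adjusted p 0.0857 and 0.064). Selplg, the gene of a selectin ligand, had 0.65, 0.50 and 0.45. Itgb1, the gene of the integrin beta-1 chain, had -0.27, -0.45 and -0.71. Of 23 homing and adhesion receptors 2 were higher and 2 lower below an unadjusted p of 0.05, against 2.62% and 3.43% of all genes. The list median was -0.05.

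S100a4, whose calcium-binding product is abundant in effector T cells, had 1.93, 1.80 and 1.34 with IL-21 (mean 1.69 ± 0.19 SE, n = 3; limma adjusted p 0.0823, with the replicate block 0.0359). Its means were 2.59 with IL-2 and 1.83 with IL-15, and the differences did not pass (adjusted p with the block 0.171 and 0.82). S100a6, its neighbour in the S100 cluster, had 1.38, 1.15 and 0.68, with a mean of 1.07. Anxa2, which encodes annexin A2, had -0.03, -0.72 and -0.89, and its mean of -0.55 stood against 1.81 with IL-2 (adjusted p of the difference with the block 0.0163) and 1.20 with IL-15 (0.0443). S100a10, which encodes the partner of annexin A2, had a mean of -0.22 against 0.93 with IL-2 (0.0378). Of 15 genes of these families 2 were higher and 0 lower below an unadjusted p of 0.05, against 2.62% and 3.43% of all genes. The list median was -0.16.

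Further genes near the top of the ranking had roles outside these lists. Casp6, the gene of caspase-6, had 0.72, 1.06 and 0.87 (mean 0.88 ± 0.12 SE; limma adjusted p 0.12, with the replicate block 0.0394), and was higher than with IL-15, at -0.42 (adjusted p of the difference with the block 0.0329). With IL-2 its mean was 0.15, and that difference did not pass (limma adjusted p with the block 0.0937). Kctd12, known as an auxiliary subunit of GABA-B receptors, had 1.06, 1.39 and 1.71 (limma adjusted p 0.177, with the block 0.0254). Cdkn2d, the gene of the cyclin-dependent kinase inhibitor p19-INK4d, had 0.91, 1.45 and 1.46 (limma adjusted p 0.177, with the block 0.0387). Its means were 0.84 with IL-2 and 0.30 with IL-15, and the differences did not pass (adjusted p with the block 0.419 and 0.134). Actn2, the gene of a muscle alpha-actinin, had 1.02, 0.43 and 1.21 (limma adjusted p 0.372, with the block 0.0379). All 4 were above 0 on every IL-21 array. The rest of the top 15 above 0 had means between 0.85 and 1.79: Igfbp4, the gene of an insulin-like growth factor binding protein, Emb, Flot1, Sun2, which encodes a nuclear envelope protein, and the immediate early gene Ier3.

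On the lower side, Xist, the RNA of the inactive X chromosome, had -0.87, -1.33 and -0.90 (mean -1.03 ± 0.16 SE; limma adjusted p 0.177, with the replicate block 0.0293). Its 2 probes had -1.04 and -1.02, and the sex of the mice is not given. Asns, the gene of asparagine synthetase, had -0.96, -0.78 and -1.79 (mean -1.17 ± 0.21 SE; limma adjusted p 0.204). It stood at 0.78 with IL-2 and 0.63 with IL-15, and the differences passed with the block (adjusted p 0.0222 and 0.0406). Gpd2, the gene of the mitochondrial glycerol phosphate dehydrogenase, had -0.72, -0.84 and -1.20 (limma adjusted p 0.288, with the block 0.0359). Asns and Gpd2 were thus below -0.7 on each IL-21 array.

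Kpnb1, the gene of the import receptor importin beta-1, had -0.39, -0.73 and -1.05 (limma adjusted p 0.477, with the block 0.0486). Rag2, known for V(D)J recombination in immature lymphocytes, had -2.16, -1.16 and -0.75 (limma adjusted p 0.299, with the block 0.0387). Edil3, the gene of an extracellular matrix protein, had -5.28, -0.47 and -1.68 (limma adjusted p 0.805, with the block 0.048). Replicate 1 thus made up most of its mean of -2.48. In replicate 1 Edil3 was also below 0 with IL-2, at -1.65, and with IL-15, at -3.25. Olr1, the gene of a scavenger receptor, likewise had its lowest value in replicate 1, with -2.11, -0.68 and -0.81 (limma adjusted p 0.79, with the block 0.0387). Galr1, the gene of a galanin receptor, had -1.36, -0.75 and -0.48 (limma adjusted p 0.564, with the block 0.0359). Best2, of the bestrophin channels, had -0.80, -0.83 and -0.62 (limma adjusted p 0.151, with the block 0.048). The other genes among the 15 with the smallest p below 0 were Aldh2, Gje1, Atf3, Klf6, Rcsd1 and Ndp, with means between -1.19 and -0.73.

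Over 1 on all 3 arrays were 11 genes (0.0629%), and below -1 on all 3 were 8 (0.0457%). They are named here for this count, after their values were seen. Above were Satb1, S100a4, Cxcr6, Gzma, Gzmc, Il21, Igfbp4, Kctd12, Klrc1, Klra16 and Klra22, a further Ly49 gene. Below were Cd83, Tnfrsf4, Irf8, Dna2, which encodes a nuclease of DNA replication, Mpeg1, which encodes the pore-forming protein perforin-2 of phagocytes, Perp, a p53 target, Odam and Tbc1d21. Mpeg1 had -1.46, -1.02 and -1.54, and Dna2 had -1.68, -1.01 and -1.08. Of these 8 genes, Cd83 and Tnfrsf4 passed with the replicate block.

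Irf8, Lta and Socs3 were the only genes, among the 35 of the 45 ranked or called genes with a promoter window in the table used, whose 250 bases before an annotated start held the letters TTCNNNGAA. This palindrome, the same on both strands, is the general binding motif of STAT factors. The share was 3 of 35 genes, beside 8.13% of 27025 genes with a window, which is near the background, and a match is a description of the letters. The sequences are from RefSeq, build GRCm38.p6, written 5′ to 3′ in the direction of the gene, with the motif in capitals. Irf8 is shown whole, because its window lies outside the annotated gene, and the matches of Socs3 and Lta with up to 10 bases on each side, because another annotated transcript of the gene spans them. In Irf8, on the plus strand of chromosome 8, the matches began 171 and 153 bases before the start, in Lta, on the minus strand of chromosome 17, 152 and 16 bases, and in Socs3, on the minus strand of chromosome 11, 154 bases.
Irf8, chr8:120736108-120736357: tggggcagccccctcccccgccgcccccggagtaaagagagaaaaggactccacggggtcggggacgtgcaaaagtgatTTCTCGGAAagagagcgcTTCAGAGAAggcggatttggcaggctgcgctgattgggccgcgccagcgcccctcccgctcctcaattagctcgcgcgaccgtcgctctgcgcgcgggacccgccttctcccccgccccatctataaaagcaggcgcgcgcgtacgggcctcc
Socs3, chr11:117969502-117969530: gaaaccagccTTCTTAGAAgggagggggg
Lta, chr17:35205485-35205513: accatcactcTTCAGGGAAccaggcttcc
Lta, chr17:35205352-35205377: ccgactccctTTCCCAGAAcgcagta
Socs3 had its IL-21 values above 0, while Irf8 and Lta had theirs below 0, so genes with these letters lay on both sides.

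**Figure D4:**
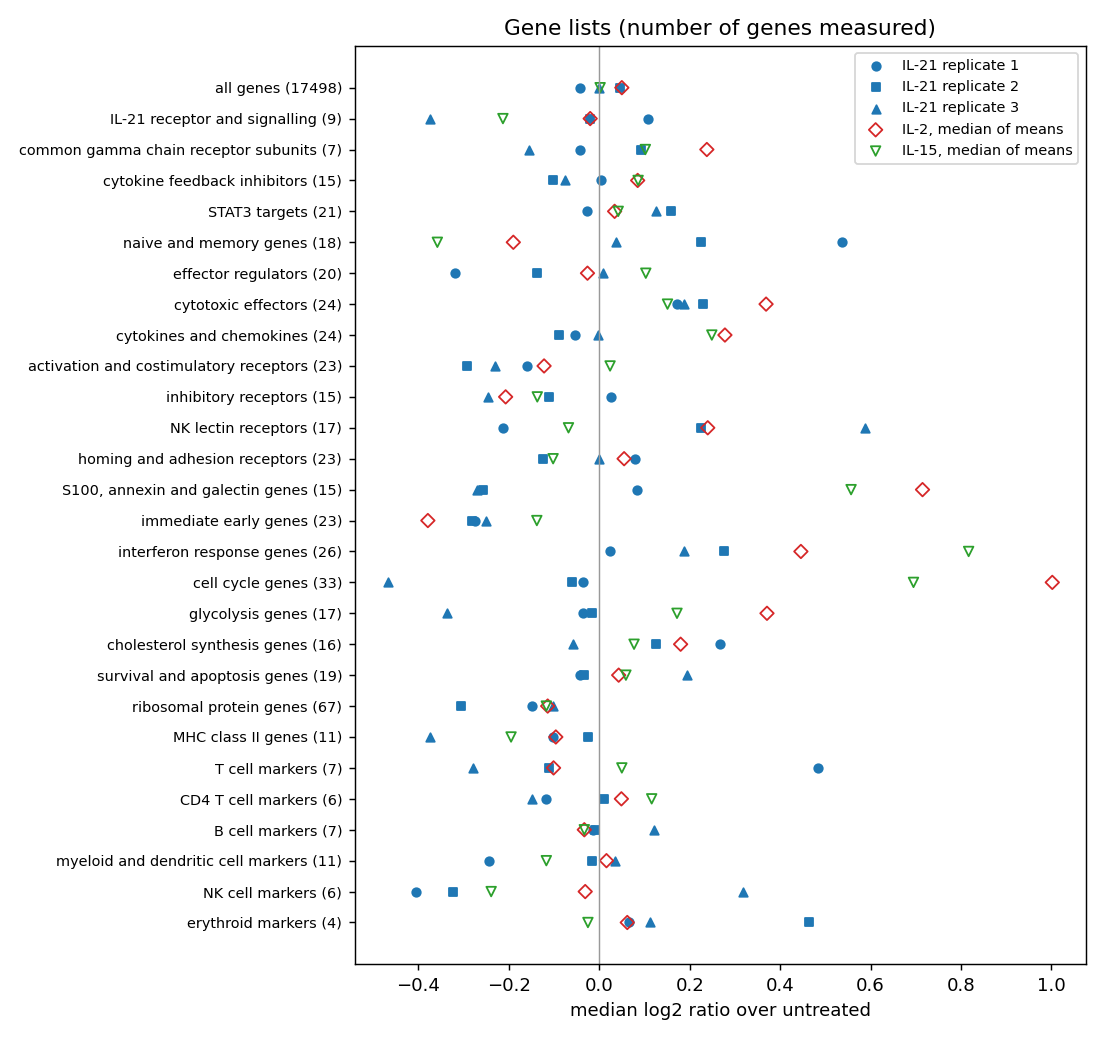
Median log2 ratio over untreated cells (x axis) of the measured members of each gene list (rows), with all genes on top. Filled marks are the IL-21 arrays of replicates 1, 2 and 3, marked by shape, and open marks are the medians of the means with IL-2 and IL-15. Cell cycle genes lie at -0.23 with IL-21, 1.00 with IL-2 and 0.70 with IL-15, or at 0.11, -0.22 and 0.05 if the signs of replicates 2 and 3 are turned.

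The median of cell cycle genes was below 0 with IL-21 and above 0 with IL-2 and IL-15, and with the signs of replicates 2 and 3 turned it was 0.11 with IL-21, -0.22 with IL-2 and 0.05 with IL-15. Of 33 measured, 0 were higher and 2 lower below an unadjusted p of 0.05, against 2.62% and 3.43% of all genes. On all arrays 2 lay above 0 and 11 below 0, beside 11.5% and 12.4% of all genes. The list median was -0.23 (array medians -0.04, -0.06 and -0.47), beside 1.00 with IL-2 and 0.70 with IL-15. Bub1b, a spindle checkpoint gene, had -0.56, -0.38 and -0.73, and was lower than with IL-2 by -2.19 ± 0.28 on the log2 scale (SE; limma adjusted p 0.0476), in 3 of 3 replicates. Ccna2, the gene of cyclin A2, had -0.50, -0.71 and -0.81, and Ccnb2, that of cyclin B2, -0.83, -0.89 and -0.76. With the block, 7 of the 33 were lower with IL-21 than with IL-2 and 0 higher, beside 0.497% and 0.0286% of all genes, and 1 was lower than with IL-15, beside 0.16%.

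Over all genes, limma called 13 lower (0.0743%) and 1 higher (0.00571%) with IL-21 than with IL-2, and 3 lower (0.0171%) and 0 higher than with IL-15. Against IL-2, 265 genes (1.51%) were higher and 781 (4.46%) lower below an unadjusted p of 0.05. Against IL-15, 362 genes (2.07%) were higher and 631 (3.61%) lower below an unadjusted p of 0.05. With the replicate block, which pairs the arrays, 5 were higher and 87 lower than with IL-2, and 4 higher (0.0229%) and 28 lower (0.16%) than with IL-15. Without replicate 1, 2 or 3 the unblocked fit called 0 genes in each comparison; IL-2 replicate 3 is the array that stood apart. Among the 14 genes called against IL-2 were histone and metallothionein genes, whose share of all genes was not counted. The histone gene H2ac12 had -0.73, -0.56 and -0.57 with IL-21, against means of 2.33 with IL-2 and 2.09 with IL-15, and H2ac15 had -0.71, -0.96 and -0.73, against 2.08 and 1.85. The metallothionein genes Mt1 and Mt2, which encode zinc-binding proteins, had IL-21 means of -0.78 and -1.06, against 1.92 and 1.93 with IL-2. Fignl1, which encodes a DNA repair ATPase, had -0.57 against 1.80, and 1500009L16Rik had -0.42 against 2.31. All 6 genes had IL-21 below IL-2 in 3 of 3 replicates. Histone probes may bind RNA of other histone genes, and the comparisons share a common design in which each ratio is set against untreated cells.

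**Figure D5:**
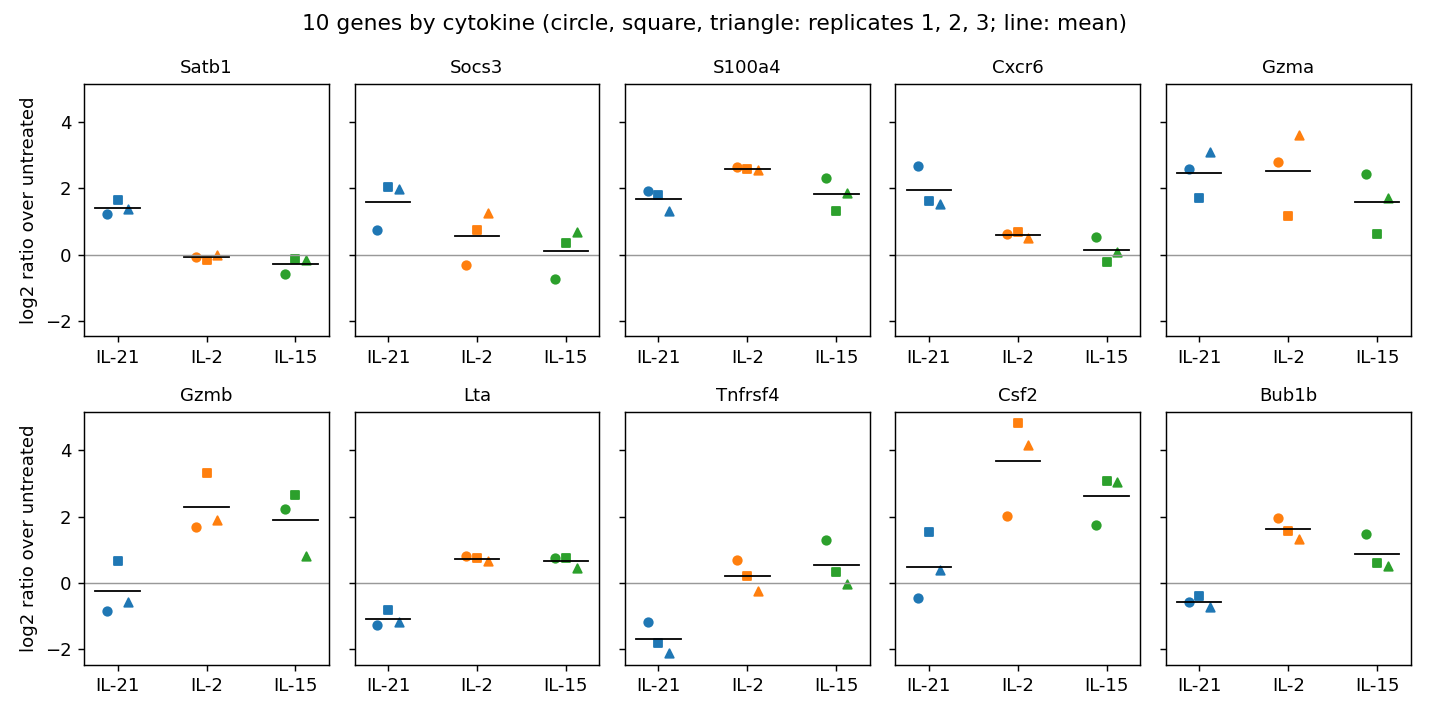
Log2 ratio over untreated cells (y axis) for 10 genes, with the 3 arrays each of IL-21, IL-2 and IL-15 as points and the mean as a line. Lta and Tnfrsf4 lie below 0 with IL-21 and above 0 on average with IL-2 and IL-15, Satb1 averages above 1 with IL-21 and below 0 with IL-2 and IL-15, and S100a4 averages above 1 with each.

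The medians of glycolysis and ribosomal protein genes were below 0, with members on both sides. Of 17 glycolysis genes 0 were higher and 2, Gapdh and Hk2, lower below an unadjusted p of 0.05, against 2.62% and 3.43% of all genes. The list median was -0.20 (array medians -0.04, -0.02 and -0.34), or 0.04 with the signs of replicates 2 and 3 turned. Pgk1, the gene of phosphoglycerate kinase, had -0.73, -0.02 and -0.62, and its mean of -0.46 stood against 1.57 with IL-2 (adjusted p of the difference with the block 0.0257). Of 67 ribosomal protein genes 0 were higher and 6 lower, against 2.62% and 3.43% of all genes. On all arrays 0 lay above 0 and 34 below 0, against 11.5% and 12.4%. The median of this list was -0.19 (array medians -0.15, -0.31 and -0.10), beside -0.11 with IL-2 and -0.12 with IL-15. It was 0.10 with IL-21, 0.15 with IL-2 and 0.13 with IL-15 if the signs of replicates 2 and 3 are turned. Rpl13 was the member with the smallest p, at -0.36, -0.53 and -0.30.

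Immediate early genes, which T cell receptor signals induce within hours, lay more often below 0. Of 23 measured, 2 were higher and 7 lower below an unadjusted p of 0.05, against 2.62% and 3.43% of all genes. The list median was -0.19 (array medians -0.28, -0.28 and -0.25), beside -0.38 with IL-2 and -0.14 with IL-15. It was 0.05 with IL-21, 0.36 with IL-2 and 0.04 with IL-15 if the signs of replicates 2 and 3 are turned. Dusp4 and Dusp6, phosphatases that switch off MAP kinases, had -0.68, -0.63 and -1.03 and -0.69, -0.61 and -0.57. Atf3, a stress-induced factor, had -1.37, -0.78 and -0.52. Ier3 was above 0, at 0.93, 1.10 and 0.99. The counts of this list were not tested as a set.

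Interferon response genes had a median of 0.17, with 11 of 26 above 0 and 3 below 0 on all arrays, against 11.5% and 12.4% of all genes, but 1 higher and 0 lower below an unadjusted p of 0.05, against 2.62% and 3.43%. That gene was Ifitm3, at 0.50, 0.95 and 0.48, and Ifit3 had 0.87, 0.94 and 0.34. The median was 0.45 with IL-2 and 0.82 with IL-15. With the signs of replicates 2 and 3 turned it was -0.13 with IL-21, -0.25 with IL-2 and -0.62 with IL-15. Of 16 cholesterol synthesis genes 2, Insig1 and Cyp51, were higher and 0 lower, against 2.62% and 3.43% of all genes. Their list median was 0.10, with array medians of 0.27, 0.13 and -0.06. Of 19 survival and apoptosis genes 3 were higher and 1 lower, against 2.62% and 3.43% of all genes: Fas, the death receptor gene, had 0.47, 0.87 and 0.86, Birc2 0.59, 0.57 and 0.19, Bcl2l11, the gene of the killer protein BIM, 0.35, 0.44 and 0.21, and Bcl2a1a, a survival gene, -0.10, -0.69 and -0.79. None of these passed with the block.

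Markers of other cells were checked beside these values, since genes such as Irf8, Cd83 and Mpeg1 are also expressed by B cells, dendritic cells or macrophages. Of 7 B cell markers 0 were higher or lower below an unadjusted p of 0.05, against 6.05% of all genes. Their median was 0.07, with means from -0.71 for Cr2 to 0.18 for Pax5. Of 11 myeloid and dendritic markers 0 were higher or lower, against the same 6.05%. Their median was -0.01 (0.003 with quantile normalization), with means from -0.39 to 0.18. In lists this small a count of 0 is near the share of all genes. Of 11 MHC class II genes, which B cells and dendritic cells carry, 0 were higher and 4 lower, against 2.62% and 3.43% of all genes: H2-Oa at -0.64, -0.92 and -1.62, H2-Aa, Cd74 and H2-Ab1. Their part in the values of Irf8, Cd83 and Mpeg1 was not tested. Of 6 CD4+ T cell markers 0 were higher and 1, Tnfrsf4, was lower, against 2.62% and 3.43% of all genes. The other 5 had means between -0.22 and 0.09. Of 4 erythroid markers 0 were higher or lower below an unadjusted p of 0.05, against 6.05% of all genes. Hba-a1, the gene of alpha globin, had -2.23, 0.79 and 1.82. The T cell markers Cd8a and Cd8b1 had 0.48, -0.01 and -0.25 and 0.44, 0.17 and -0.20. None of 7 T cell markers kept its sign on the 3 arrays, and neither did 13307 of all 17498 genes. As ratios these values cannot show whether a marker was expressed.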

How the data were processed

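The authors deposited, per the labels, 1 signed log ratio for each probe of each 2-colour array, taken here as log2, and the values carry no intensities. How background was corrected and ratios were normalized is not given in the sources used. Of 36547 probes, 26926 had 1 gene symbol in the platform annotation, 203 had several and 9418 were not listed. After 42 probes for viral sequences were left out, 26884 probes were averaged to 17498 genes. Ratios were fitted with limma 3.58.1 in R 4.3.3 over all 9 arrays, with 1 coefficient for each cytokine, Benjamini-Hochberg adjustment and two-sided tests at an adjusted p of 0.05. The script was tested on simulated data.

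Arrays with the same replicate number deviated together from their group means (correlations of 0.15 to 0.65 for the 9 pairs over genes), so the numbers were taken to pair the arrays. By the design text, arrays of 1 number also had the same dye order. These correlations therefore cannot tell shared cells or RNA from a shared dye effect. The fit with the replicate number as a block is given where it changes a call. p-values measure the spread between these arrays.

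The members and the 27 gene lists were chosen with earlier results of these data known. Named were the 15 genes on each side with the smallest p and 1 sign on all 3 arrays, the genes called with the block, members of the lists on IL-21 signalling and T cell function, up to 5 members of smallest p of each other list, and up to 6 called differences on each side. Alternatives were both blocks, a dye term, quantile normalization, array medians set to 0, medians over probes, single probes, turned signs, the IL-21 arrays alone and each replicate left out. Leaving out replicates in the blocked fit and turning signs for list medians were chosen after seeing the data. A deposited list of explanations was not used for values.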

Additional observations from a re-analysis of the deposited data

Results flagged for a closer look

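Genes whose effect differed between cytokines are given here with the difference of the log2 ratios, IL-21 minus the other cytokine, by limma's test of the difference itself over 3 arrays each. Against IL-2, the metallothionein genes Mt2 and Mt1 differed by -2.998 and -2.70, the histone genes H2ac12, H2ac15, H2bc22 and H3c11 by -2.95, -2.88, -1.86 and -1.69, and 1500009L16Rik by -2.72. Genes of division and DNA repair were among them: Fignl1 differed by -2.37, Bub1b by -2.19, Diaph3, which encodes a formin, by -1.76 and Kntc1, which encodes a kinetochore protein, by -1.62. Lta differed by -1.82 and Scn9a, the gene of a sodium channel, by -1.30, while Satb1 was higher with IL-21 by 1.49. Against IL-15, H2ac12 differed by -2.71, H2ac15 by -2.65 and Lta by -1.73. None of these differences passed without replicate 1, without replicate 2 or without replicate 3. Groups of 3 arrays were too small for a check of single outlying arrays.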

How the results depend on the processing

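The count of genes past the adjusted threshold for IL-21 against untreated cells, 0 with limma, was 23 with the replicate block, 19 with a dye term, 1 with quantile normalization and 1 with array medians set to 0. It was 0 with a random block, with medians over probes, with single probes, with signs turned and with the IL-21 arrays alone. Counts at an unadjusted p under 0.05, 458 higher and 601 lower, were 1056 and 1453 with the replicate block, 574 and 1060 with the dye term, 652 and 407 with quantile normalization, which turned the balance, 396 and 1312 with signs turned, 301 and 465 with the IL-21 arrays alone, and 698 and 907 with single probes. Leaving out a replicate number or 1 IL-21 array gave 0 genes past the adjusted threshold, 153 to 1141 higher and 193 to 979 lower, and without replicate 1 the balance also turned, with 1141 higher and 703 lower, as without IL-21 replicate 1, with 913 and 652. The 14 genes called against IL-2 became 92 with the replicate block, 201 with the random replicate block, 90 with the dye term, 1 with quantile normalization and 0 with signs turned. The 3 called against IL-15 became 32, 127, 39, 1 and 0 in the same order of settings, and 0 passed in either comparison when a replicate was left out. The cause was not tested. The replicate block changed no other call against untreated cells than those of the 23 genes.

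The mean log2 ratio of named genes changed sign with the dye term for Hba-a1 -0.21 and Jak3 0.0365, and with quantile normalization for Il9r 0.0134, Jak3 0.0079 and Socs1 0.0161. With the signs of replicates 2 and 3 turned, a change by construction, the means became 1500009L16Rik 0.18, Actn2 -0.20, Aldh2 0.35, Anxa2 0.53, Asns 0.54, Bach2 0.64, Batf -0.64, Bcl2a1a 0.46, Bcl2l11 -0.10, Bcl3 -0.0307, Best2 0.22, Bhlhe40 0.31, Birc2 -0.0591, Bub1b 0.18, Casp6 -0.40, Ccl1 0.47, Ccl9 -0.30, Ccna2 0.34, Ccnb2 0.27, Ccr7 -0.16, Cd27 0.58, Cd70 0.089, Cd74 0.40, Cd83 1.01, Cdkn2d -0.67, Csf2 -0.79, Cxcr6 -0.16, Dapl1 0.68, Dna2 0.14, Dusp4 0.33, Dusp6 0.16, Emb -0.38, Fas -0.42, Fasl 1.17, Fignl1 0.21, Flot1 -0.26, Foxp1 0.59, Gapdh 0.20, Gata3 0.0989, Gje1 0.21, Gpd2 0.44, Gzma -0.74, Gzmc -0.84, H2-Aa 0.55, H2-Ab1 0.12, H2-Oa 0.63, H2ac12 0.13, H2ac15 0.32, Hba-a1 -1.61, Icos -0.0713, Id2 -0.10, Ier3 -0.39, Ifit3 -0.14, Ifitm3 -0.31, Igfbp4 -0.87, Il10 -0.11, Il15ra 0.0614, Il2 -0.35, Il21 -1.10, Il21r -0.002, Il2ra 0.0765, Il2rb 0.0838, Il3 -0.34, Il7r -0.14, Insig1 -0.18, Irf8 0.48, Itgb1 0.29, Jak3 0.24, Kctd12 -0.68, Klf6 0.29, Klra16 -0.26, Klra22 -0.71, Klrc1 -0.58, Klre1 -0.34, Klrk1 0.36, Kpnb1 0.46, Lag3 0.43, Lta 0.24, Mpeg1 0.37, Mt1 0.0482, Mt2 0.43, Ndp 0.0572, Odam 0.29, Pax5 -0.0364, Pdcd1 0.39, Perp 0.52, Prdm1 -0.58, Prf1 -0.0746, Rcsd1 0.79, Rpl13 0.16, S100a10 0.38, S100a4 -0.40, S100a6 -0.15, Satb1 -0.60, Selplg -0.0987, Socs3 -1.09, Stat3 0.0968, Sun2 -0.12, Tbc1d21 0.57, Tnf -0.18, Tnfrsf4 0.91, Tnfsf10 -0.34, Tnfsf11 0.41, Txk -0.17, Tyk2 0.28, Xist 0.45 and Zbtb32 0.17. The differences from IL-2 became 1500009L16Rik 1.13, Bub1b 0.50, Diaph3 0.43, Fignl1 0.54, H2ac12 0.89, H2ac15 0.90, H2bc22 0.65, H3c11 0.56, Kntc1 0.58, Lta 0.44, Mt1 1.17, Mt2 1.45, Satb1 -0.62 and Scn9a 0.31. The differences from IL-15 became H2ac12 0.63, H2ac15 0.65 and Lta 0.39. With 1 replicate left out, the means of 17 genes without a common sign ranged on both sides of 0: Bach2 from -0.68 to 0.0259, Bcl6 from -0.45 to 0.36, Cd8a from -0.13 to 0.24, Cd8b1 from -0.0178 to 0.30, Csf2 from -0.0258 to 0.96, Foxp1 from -0.57 to 0.14, Gzmb from -0.71 to 0.0528, Havcr2 from -0.0042 to 0.23, Hba-a1 from -0.72 to 1.30, Ifng from -0.0696 to 0.15, Il15ra from -0.18 to 0.0227, Il2rb from -0.19 to 0.0392, Il3 from -0.0068 to 0.54, Il9r from -0.41 to 0.28, Jak1 from -0.17 to 0.36, Jak3 from -0.22 to 0.11, Socs1 from -0.28 to 0.22. Dim probes could not be set apart without intensities, and blocked p-values against untreated cells rest on all 3 replicate numbers.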
